A study of Mus musculus with 4 samples.

Results

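The 10 genes described here carry chloride, bicarbonate, sulfate, short-chain fatty acids and sugar phosphates across the membranes of colon epithelial cells, or control that traffic. They were chosen by name: Cftr, Slc12a2, Slc26a3, Slc26a6, Slc26a2, Slc4a4, Clca4b, Slc5a8, Slc37a2 and Prkg2, out of 18194 genes with a probe set of their own on the array. A probe set is a group of short probes that together report 1 transcript, and 24 probe sets carried the symbol of a member and no other.

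Expression was measured on Affymetrix arrays in scrapings of the colon mucosa of 129S6/SvEv mice aged 5 weeks. The 4 genotypes were VhlF/F, with both Vhl alleles floxed, VhlΔIE, with Vhl deleted in the intestine, and VhlF/F/Apcmin/+ and VhlΔIE/Apcmin/+, which are these genotypes with the Min mutation of 1 Apc allele, a model of intestinal tumors. They are called Vhl floxed, then Vhl deleted, then Vhl floxed Apc mutant, then Vhl deleted Apc mutant, and values below follow that order. Each genotype had 1 array. The design text counts 4, 3, 3 and 5 mice for them, and whether their RNA was pooled is not stated. Neither the promoter that drives Cre nor the presence of tumor tissue in the scrapings is given in the sources used here. Scrapings hold stroma, muscle and blood vessels beside epithelium, so fewer cells of a type and less RNA per cell cannot be told apart.

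Colon epithelium absorbs sodium chloride and short-chain fatty acids and secretes bicarbonate and chloride. Apical anion exchangers take up chloride in return for bicarbonate. Secretion loads chloride through the basolateral sodium-potassium-chloride cotransporter and releases it through the apical channel CFTR, which protein kinases driven by cyclic AMP and cyclic GMP open. Butyrate and other products of bacterial fermentation enter with sodium or protons and are a main fuel of colonocytes. The von Hippel-Lindau protein, encoded by Vhl, marks hypoxia-inducible factors (HIF) for degradation, and the comparisons address how its loss, alone or with mutant Apc, goes with transcript levels.

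Values are RMA log2 values as deposited, so a difference of 1 is a 2-fold difference. They lay between 2.38 and 14.41 over all probe sets. They are levels within a probe set and are not compared between genes. With 1 array per genotype no difference has a replicate check and no p-value is given. A gene is said to be at least 2-fold higher or lower where its probe set of highest mean differs by 1 or more, and shares over all genes refer to the 11871 genes that reached 6 in at least 1 array. All 10 members passed this floor, Slc26a6 through 1 array and Prkg2 through the 2 arrays in which it was high.

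The labels were checked first. Vhl read 8.40, 7.03, 8.17 and 6.56, lower in both Vhl deleted arrays, although whether its probes lie in the deleted part is not known here. Cre recombinase, which the array covers with 4 control probe sets, lay at 7.41 to 9.95 where Vhl was deleted and at 2.97 to 4.45 where it was not. Xist, which is expressed from the inactive X of females, read 11.37, 5.58, 11.83 and 6.25. The Y-linked gene Eif2s3y was above 7 on all of them, at 8.58, 8.78, 7.27 and 8.80, so the floxed arrays carried male RNA too. Xist followed Vhl status, so the sex makeup of the samples cannot be told apart from it. Of 8 absorptive colonocyte markers, Car1, Car4, Aqp8, Krt20, Slc26a3 and Guca2a lay at 12.39 or above on every array. Slc20a1 read 12.87, 11.25, 12.88 and 11.04, and Cd177 read 10.47, 11.25, 9.85 and 11.35. The hepatocyte markers other than Ttr were at least 2-fold higher in the Vhl floxed array than in each array it was compared with, and Alb read 11.53, 7.24, 6.10 and 7.08. Their part in the results was not tested.

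Vhl deletion went with large differences in 4 members in both Apc genotypes. Clca4b was 17.3-fold higher with wild-type and 15.8-fold higher with mutant Apc. Slc37a2 was 8.23- and 14.7-fold lower, Slc5a8 was 3.36- and 4.74-fold lower, and Slc26a2 was 3.12- and 3.20-fold lower. Of the 10 members, 1 was at least 2-fold higher in both comparisons, against 1.58% of all genes, and 3 were at least 2-fold lower in both, against 0.733%. With wild-type Apc alone, 1 member was at least 2-fold higher, where 2.27% of all genes were, and 3 were at least 2-fold lower, where 1.60% were. With mutant Apc, 2 members were at least 2-fold higher, where 2.82% of genes were, and 4 were at least 2-fold lower, where 1.52% were. The median difference of the members was -0.68 and -0.65, beside -0.02 and -0.02 over all genes. The members were chosen with these differences known, so the counts describe them and are no test.

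**Figure D1:**
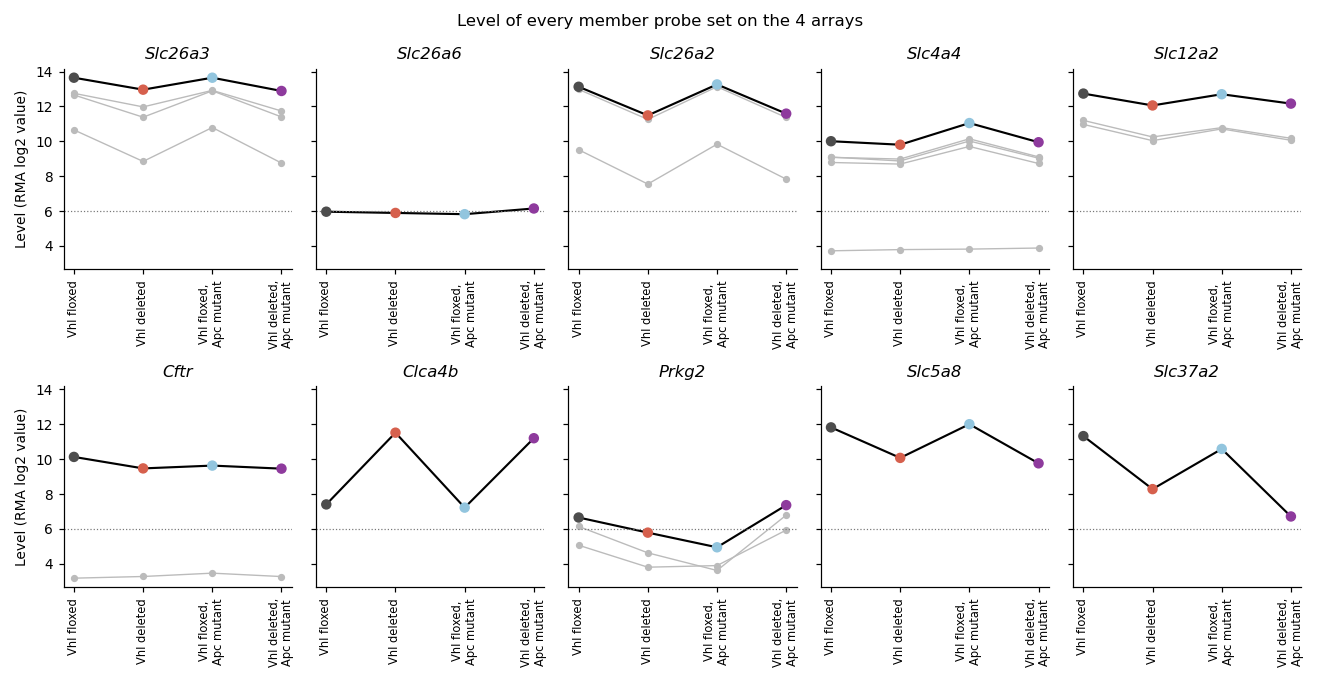
RMA log2 level of each member probe set on the 4 arrays, 1 panel per gene. Coloured points on a black line are the probe set with the highest mean, grey points the other probe sets, the dotted line is the floor of 6, and lines only join the values of 1 probe set. Clca4b is high in both Vhl deleted arrays, Slc26a2, Slc5a8 and Slc37a2 are low in both, and the highest-mean probe set of Prkg2 is lowest with floxed Vhl and mutant Apc.

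The sequence before the start of 3 of these genes is shown because they differed most in both Vhl comparisons and because HIF binds a short core motif. Each line holds the 250 bases before the annotated start in the GRCm38.p6 build, from RefSeq, 5′ to 3′ on the strand of the gene. Clca4b lies on the minus strand at chr3:144932530-144932779, Slc37a2 on the minus strand at chr9:37255739-37255988 and Slc5a8 on the plus strand at chr10:88885742-88885991. Capitals mark the HIF core ACGTG or GCGTG and the core TTTATG of the intestinal factor CDX2, on either strand.
Clca4b: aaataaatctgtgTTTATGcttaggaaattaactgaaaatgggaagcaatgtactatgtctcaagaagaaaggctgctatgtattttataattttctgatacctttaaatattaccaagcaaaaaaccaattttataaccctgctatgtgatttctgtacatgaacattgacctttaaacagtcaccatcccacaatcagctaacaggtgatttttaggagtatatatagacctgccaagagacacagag
Slc37a2: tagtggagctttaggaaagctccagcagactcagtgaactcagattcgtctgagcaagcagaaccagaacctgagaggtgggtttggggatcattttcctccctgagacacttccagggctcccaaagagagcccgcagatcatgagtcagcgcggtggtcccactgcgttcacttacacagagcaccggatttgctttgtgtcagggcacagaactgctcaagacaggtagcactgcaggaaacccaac
Slc5a8: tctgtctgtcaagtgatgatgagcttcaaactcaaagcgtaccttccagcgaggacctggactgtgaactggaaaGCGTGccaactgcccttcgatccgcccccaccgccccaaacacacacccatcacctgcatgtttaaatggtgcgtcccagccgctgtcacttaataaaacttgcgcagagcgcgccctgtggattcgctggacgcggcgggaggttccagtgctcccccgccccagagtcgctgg
Slc5a8 held 1 GCGTG, 175 bases before its start, and Clca4b held 1 TTTATG, 237 bases before its start. Slc37a2 held none of these letters. Windows were read for 7 members, and Slc12a2, Slc26a2 and Prkg2 had none read. Members on 1 chromosome were passed over, while the shares over all windows include it. Of the 7 members, 3 had a HIF core in this window. These were Slc5a8 with 1, Cftr with 2 GCGTG and Slc4a4 with 1 at 1 of its 2 starts. A HIF core was in 38.6% of the 32851 windows of the table, ACGTG in 16.6%, GCGTG in 28.2% and TTTATG in 10.8%. ACGTG is also part of the clock motif CACGTG. The reference is a C57BL/6J genome and the mice were 129S6/SvEv. A match is a description of letters and not a binding site.

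The apical exchangers of the SLC26 family differed from each other. Slc26a3, the chloride-bicarbonate exchanger of the colon whose loss causes congenital chloride diarrhea, had 4 probe sets, all lower in both Vhl comparisons. The highest-mean probe set read 13.65, 12.96, 13.65 and 12.89, differences of -0.69 and -0.76, short of 2-fold. The next read 12.75, 11.97, 12.92 and 11.74, differences of -0.78 and -1.18. A probe set at 12.66, 11.38, 12.90 and 11.40 differed by -1.28 and -1.498. The dimmest read 10.65, 8.85, 10.79 and 8.75, differences of -1.81 and -2.04. The direction was thus shared by 4 of 4 probe sets, the size grew as the mean level of the probe set went down, and 2 of 4 with wild-type and 3 of 4 with mutant Apc passed 2-fold. The Apc mutation went with differences of at most 0.24 in size over these probe sets.

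Slc26a2, a sulfate transporter that feeds the sulfation of mucins and proteoglycans, was lower in all 3 probe sets. The highest-mean probe set read 13.13, 11.49, 13.26 and 11.59, differences of -1.64 and -1.68. The others read 12.98, 11.26, 13.13 and 11.37, and 9.52, 7.55, 9.83 and 7.83, differences of -1.72 and -1.76 and of -1.97 and -2.004. Both Vhl deleted arrays lay below both Vhl floxed arrays in each probe set, and the Apc mutation went with 0.10 to 0.32 in either Vhl state. The genes nearest to this pattern over the 4 arrays, by Euclidean distance after subtracting each gene's mean, were Hykk at 0.16, Itih2 at 0.18 and the prostaglandin receptor Ptger3 at 0.18. Ptger3 read 6.75, 5.09, 6.67 and 5.07.

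Slc26a6, an exchanger best known from the small intestine and kidney, read 5.96, 5.89, 5.82 and 6.15 in its single probe set. It lay within 0.33 on all arrays, near the floor, where differences are compressed by background.

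Among bicarbonate carriers, Slc4a4, the basolateral sodium-bicarbonate cotransporter, stood out on 1 array. Its highest-mean probe set read 10.01, 9.81, 11.05 and 9.95. Only the array with floxed Vhl and mutant Apc was high, and the others lay within 0.20 of each other. Vhl deletion thus went with -0.20 with wild-type and -1.10 with mutant Apc. The Apc mutation went with 1.04 with floxed Vhl and 0.14 with deleted Vhl. The 3 other probe sets above the floor gave 0.92 to 1.06 for Apc with floxed Vhl, and a probe set under the floor read 3.72 to 3.88. Of the members, 1 was at least 2-fold higher with mutant Apc and floxed Vhl, where 0.118% of all genes were. The 2 Vhl differences of Slc4a4 share no array, but both comparisons in which it passed 2-fold rest on the Vhl floxed Apc mutant array. With the other floxed array as the control, the 2 Vhl differences were -1.24 and -0.06.

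That array was also the highest for Hoxd genes, which pattern the hindgut along its length, and for a sodium channel subunit. Hoxd10 read 6.52, 5.38, 9.13 and 6.77, Hoxd13 read 9.13, 8.65, 11.08 and 9.05, and the subunit gene Scnn1g read 6.97, 6.53, 9.33 and 6.51. These genes were named after their values had been seen. The stretch of colon that was scraped is not given in the sources used here, and its part in the Slc4a4 value was not tested.

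The chloride secretory genes were lower by less than 2-fold. Slc12a2, the basolateral cotransporter NKCC1 that loads the cell with chloride, read 12.74, 12.06, 12.70 and 12.16 in its highest-mean probe set, differences of -0.68 and -0.54. The other 2 probe sets read 11.20, 10.25, 10.78 and 10.17, and 10.97, 10.04, 10.71 and 10.06. All 3 probe sets were lower in both Vhl comparisons, by -0.54 to -0.95. Cftr, the apical chloride channel, read 10.13, 9.47, 9.63 and 9.46. The Vhl floxed array was high and the other arrays lay within 0.18, giving -0.66 with wild-type and -0.18 with mutant Apc. Its other probe set lay under the floor, between 3.18 and 3.46. With the Vhl floxed Apc mutant array as the control in place of the Vhl floxed one, the Cftr difference without mutant Apc was -0.16.

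Clca4b belongs to the calcium-activated chloride channel regulators, proteins that modulate a chloride conductance. It read 7.41, 11.52, 7.22 and 11.20 in its single probe set. Both Vhl deleted arrays lay far above both Vhl floxed arrays, with differences of 4.12 and 3.98. These were rank 11 and rank 15 from the highest of 11871 genes. The Apc mutation went with -0.18 and -0.32. The nearest patterns were those of Hrob at a distance of 0.32, Tmem237 at 0.45 and the hormone gene Cck at 0.49, and Cck read 4.67, 8.10, 4.19 and 8.12.

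The Clca genes lie in a row in the RefSeq order. The direct neighbours of Clca4b are Clca3b, which read 9.05, 8.84, 8.82 and 8.70, and Clca4a, which read 12.99, 13.23, 12.57 and 13.26. Clca4a differed by 0.23 and 0.70 with Vhl deletion and Clca3b by -0.21 and -0.12. Clca1, a product of goblet cells, read 13.92, 13.23, 13.83 and 13.29, differences of -0.69 and -0.54. Of the 6 Clca genes above the floor, 1 was at least 2-fold apart in a Vhl comparison. That gene was Clca4b itself, a member chosen with its difference known, so the count is no test of the row. Over the 11871 genes, the shares past 2-fold with wild-type Apc were 2.27% upward and 1.60% downward. With mutant Apc they were 2.82% and 1.52%. Clca genes are alike in sequence, and whether the probes of 1 report another was not tested.

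Prkg2, the cyclic GMP-dependent protein kinase II that phosphorylates CFTR downstream of guanylin, had opposite differences in the 2 Apc genotypes. Its highest-mean probe set read 6.66, 5.79, 4.95 and 7.37. The other probe sets read 6.14, 4.63, 3.62 and 6.79, and 5.07, 3.81, 3.90 and 5.93. The Vhl deleted Apc mutant array was the highest in all 3 probe sets and the Vhl floxed array followed. The other arrays, and the third probe set throughout, lay under 6. Vhl deletion went with -0.87 with wild-type Apc and 2.42 with mutant Apc. The Apc mutation went with -1.71 with floxed and 1.58 with deleted Vhl. It was the member at least 2-fold lower with mutant Apc and floxed Vhl, where 0.901% of all genes were, and the member at least 2-fold higher with mutant Apc and deleted Vhl, where 0.202% were. The 2 Vhl differences were 3.29 apart. They were at least 1 apart for 1 of 10 members and for 1.57% of all genes.

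The sign of the Prkg2 difference with wild-type Apc depended on the control array. With the other floxed array as the control, the Vhl differences were 0.84 and 0.71. The difference with mutant Apc thus kept its sign but fell short of 2-fold. Because 2 arrays lay under the floor, sizes against them are uncertain. With values under 6 raised to 6, Vhl deletion went with -0.66 and 1.37 and the Apc mutation with the same values, so the gap was 2.02 and the Apc difference with floxed Vhl passed 2-fold no longer. Other epithelial genes of the fixed lists were also lowest, or close to it, with floxed Vhl and mutant Apc. Slc13a1, a sodium-sulfate cotransporter of small intestine and kidney, read 6.77, 4.87, 4.54 and 5.38. Slc9a3, the apical sodium-proton exchanger NHE3, read 11.80, 10.95, 10.98 and 11.52. Of these, Slc13a1 reached the floor on 1 array.

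Of 7 small intestinal enterocyte markers on the array, 6 were above the floor. With mutant Apc and floxed Vhl, 5 of these were at least 2-fold lower, where 0.901% of all genes were, and their median over the 6 was -2.55. That comparison uses the Vhl floxed array, which held the hepatocyte transcripts, and the part of those transcripts here was not tested. Fabp1 read 7.80, 5.14, 4.44 and 4.32, so it reached the floor on the Vhl floxed array alone. Apoa1 at 5.75 and Apoc3 at 5.19 lay under the floor with floxed Vhl and mutant Apc. The summed level of the 7 markers was 12.66, 11.92, 10.82 and 12.02 on the log2 scale. Its brightest marker, Fabp2, read 12.17, 11.31, 9.73 and 11.74. The markers did not share 1 pattern. Fabp2 and Apoa1 were lowest with floxed Vhl and mutant Apc, Fabp1, Apoa4 and Apoc3 with deleted Vhl and mutant Apc, and Rbp2 was highest in the former at 9.43. Lct stayed under the floor on all arrays. The part of these markers in the Prkg2 values was not tested.

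**Figure D2:**
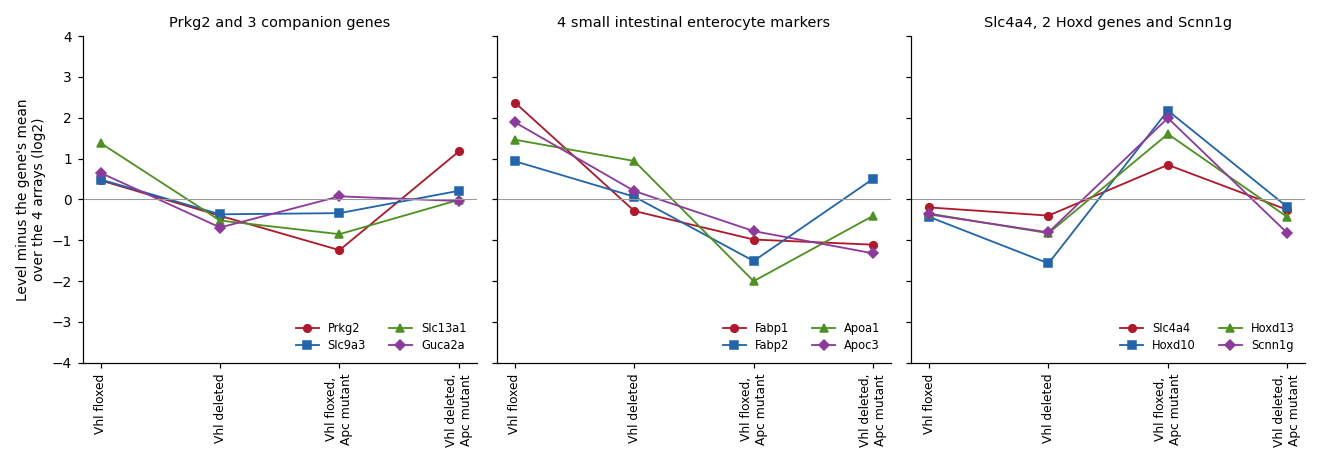
Level of 12 genes on the 4 arrays after subtracting each gene's mean (log2). The left panel shows Prkg2 and 3 genes of the companion lists, the middle panel 4 enterocyte markers and the right panel Slc4a4 with Hoxd10, Hoxd13 and Scnn1g, all chosen after their values had been seen, and lines only join the values of 1 gene. Prkg2, Fabp2 and Apoa1 are lowest with floxed Vhl and mutant Apc, where Slc4a4 and the genes beside it are highest. Of the enterocyte markers above the floor, Apoa4 and Rbp2 are not drawn, and Rbp2 was highest with floxed Vhl and mutant Apc, at 9.43.

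The short-chain fatty acid transporter Slc5a8, which carries butyrate and other monocarboxylates with sodium at the apical membrane, read 11.83, 10.08, 12.01 and 9.76 in its single probe set. Both Vhl deleted arrays lay below both Vhl floxed arrays, with differences of -1.75 and -2.25. These were rank 45 and rank 16 from the lowest of all genes. The Apc mutation went with 0.18 and -0.31. The nearest patterns were those of Hif1a at a distance of 0.17, of the ubiquitin ligase gene Fbxo32 at 0.17 and of Nxpe2 at 0.21. Hif1a, the oxygen-sensitive subunit of HIF-1, read 12.36, 10.44, 12.40 and 10.07.

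Slc37a2, a sugar phosphate transporter of the endoplasmic reticulum membrane, had the widest range of the members that were lower. Its single probe set read 11.33, 8.29, 10.59 and 6.72. Both Vhl deleted arrays were low, and the Vhl deleted Apc mutant array was the lowest. Vhl deletion went with -3.04 and -3.87, rank 10 and rank 2 from the lowest. The Apc mutation went with -0.74 with floxed and -1.57 with deleted Vhl, and Slc37a2 was the member at least 2-fold lower in that last comparison, where 0.118% of all genes were. Its nearest pattern, Mptx1, lay at a distance of 1.199 and read 12.86, 10.20, 12.95 and 9.86, and Hif1a and Cyp2f2 followed at 1.67 and 1.75.

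**Figure D3:**
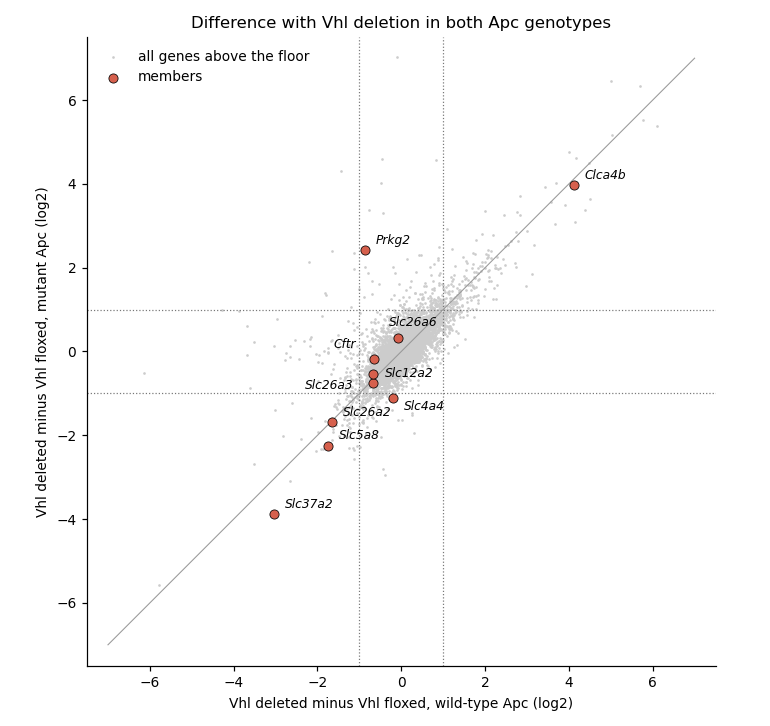
Vhl deleted minus Vhl floxed with wild-type Apc (horizontal) and with mutant Apc (vertical), in log2 units, for 11871 genes (grey) and the 10 members (red); dotted lines mark 2-fold and the solid line equal differences. Slc26a2, Slc5a8, Slc37a2 and Clca4b lie beyond 2-fold on both axes, and Prkg2 lies at -0.87 and 2.42.

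Control arrays were exchanged because the Vhl floxed array held the hepatocyte transcripts. With the other floxed array as the control, Clca4b differed by 4.30 and 3.80, Slc26a2 by -1.78 and -1.54, Slc5a8 by -1.93 and -2.06 and Slc37a2 by -2.31 and -4.61. These comparisons cross the Apc genotypes and rearrange the same arrays, so the mean of the 2 differences of a gene stays the same. The first value of each pair leaves out the Vhl floxed array and the second uses it. Counts in both are therefore no check on the hepatocyte transcripts. In this rearrangement 3 members were at least 2-fold lower in both, where 0.716% of all genes were, and 1 was higher in both, where 1.61% were.

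The companion genes of the same pathways mostly differed little. Of 20 listed genes of chloride secretion, 16 were above the floor, and 11 were lower with wild-type and 10 with mutant Apc. The medians were -0.20 and -0.24, and 0 and 3 were at least 2-fold lower, where 1.60% and 1.52% of all genes were. The 3 were Best2, Kcne3 and Kcnq1. Kcne3 and Kcnq1 form the basolateral potassium channel that sustains chloride secretion. Kcne3 read 11.25, 10.33, 11.32 and 10.20, differences of -0.91 and -1.13, and Kcnq1 read 9.26, 8.43, 9.57 and 8.54, differences of -0.83 and -1.02. Best2, a bicarbonate-permeable channel of goblet cells, read 10.03, 9.34, 10.57 and 9.30, differences of -0.69 and -1.27. In all 3 both Vhl deleted arrays lay below both Vhl floxed arrays. Clca3a2 was at least 2-fold lower with mutant Apc and floxed Vhl, at -1.30, but it reached the floor on the Vhl floxed array alone. With values under 6 raised to 6 this difference was -0.48.

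Of 18 genes of bicarbonate and acid-base transport, 8 were above the floor and 0 were at least 2-fold apart in any of the 4 comparisons. Their medians with Vhl deletion were -0.16 and -0.19, with 5 of 8 lower in each. Slc9a2, the sodium-proton exchanger NHE2, differed by -0.62 and -0.46. Slc4a2, a basolateral chloride-bicarbonate exchanger, differed by -0.74 and -0.19.

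Of 15 genes of monocarboxylate transport and short-chain fatty acid sensing, 11 were above the floor, with medians of -0.03 and 0.05. Slc16a3, the lactate exporter MCT4, read 5.19, 7.92, 5.34 and 8.19, opposite in direction to Slc5a8. Bsg, the chaperone basigin that brings MCT proteins to the membrane, read 12.35, 13.22, 12.31 and 13.31, differences of 0.88 and 1.00, the latter just short of 2-fold. Slc16a1, the proton-coupled butyrate carrier MCT1, read 12.62, 12.24, 12.37 and 11.94, differences of -0.38 and -0.43. Ffar2, a receptor for short-chain fatty acids, differed by 0.12 and 1.00, the latter just past 2-fold.

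Of 25 genes of cyclic nucleotide and kinase control, 21 were above the floor, with medians of -0.09 and -0.07. The receptor Gucy2c, which makes the cyclic GMP that drives Prkg2, differed by -0.27 and -0.07. Its ligand guanylin, Guca2a, read 13.95, 12.61, 13.37 and 13.26, so the Vhl deleted array was the lowest, at -1.34. Uroguanylin, Guca2b, read 7.89, 8.49, 7.55 and 9.10, differences of 0.59 and 1.55. Vipr1, a receptor for the secretagogue peptide VIP, was lower in both comparisons, at -0.84 and -0.88.

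Of 10 genes of sugar phosphate transport and sulfate use, 9 were above the floor, with medians of 0.02 and 0.08. Slc37a1, Slc37a3 and Slc37a4, the relatives of Slc37a2, differed by 0.02 to 0.21 in size with Vhl deletion. Papss2, which turns the sulfate that cells take up into activated sulfate, differed by 0.16 and 0.37. Slc13a1 was at least 2-fold lower in 2 comparisons that share the Vhl floxed array, at -1.90 for Vhl deletion with wild-type Apc and -2.23 for the Apc mutation with floxed Vhl. It reached the floor on that array alone, and with values under 6 raised to 6 both differences were -0.77, short of 2-fold.

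**Figure D4:**
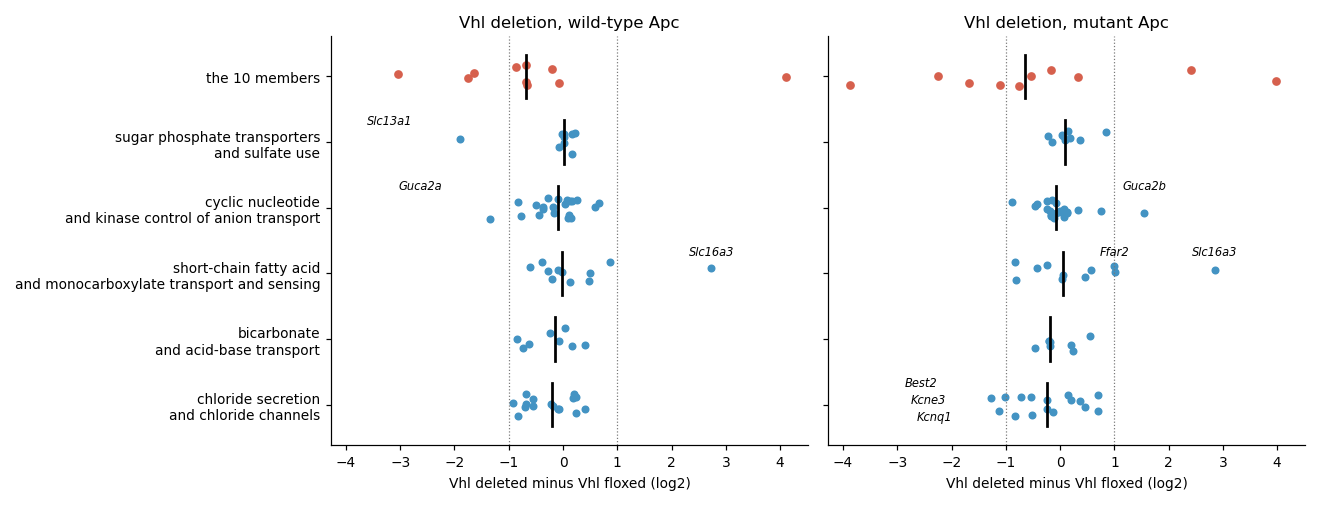
Vhl deleted minus Vhl floxed (log2) for the genes of 5 companion lists above the floor (blue) and the 10 members (red), with wild-type Apc on the left and mutant Apc on the right. Black bars are medians, dotted lines mark 2-fold, genes beyond it are named beside their list, and vertical scatter within a row has no meaning; the list medians lie between -0.24 and 0.08.

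Markers of the cell types in the scrapings are given beside these values. Of 8 absorptive colonocyte markers, which include Slc26a3 and Guca2a, 6 were lower with Vhl deletion in each Apc genotype, with medians of -0.48 and -0.27, and their summed level was 16.22, 15.64, 16.11 and 15.72. Of 7 goblet cell markers, 4 and 3 were lower, with medians of -0.09 and 0.01. All 6 endothelial markers were higher, with medians of 1.28 and 1.32, while the median of 6 smooth muscle markers was -0.51 and -0.43, with each of them lower. Of 5 crypt stem and progenitor markers, 3 were lower in each, with medians of -0.51 and -0.33. Lgr5, at 7.51, 10.05, 7.71 and 10.25, and Axin2 were higher, while Smoc2 differed by -0.82 and -0.89 and Rgmb by -0.93 and -0.70. The part of cell makeup in the members' values was not tested.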

How the data were processed

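The authors deposited log2 values, 1 for each of 45101 probe sets and 4 arrays, which the submitters' processing notes credit to affy and RMA. RMA corrects background, quantile-normalizes arrays and summarises probes by median polish. It hides shifts of the whole transcriptome and compresses differences near background. No version of either is given in the sources used here. Array medians lay between 6.05 and 6.07.

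Names came from GEO's platform annotation. Of the probe sets, 34958 had 1 symbol, 932 several and 9211 were not listed. Entrez identifiers of all 24 member probe sets were found in RefSeq GRCm38.p6, used for names and gene order. Each gene took its highest-mean probe set. Genes needed a value of 6 on at least 1 array. Differences are 1 array minus another and were called at 2-fold. The number of arrays limits precision, and no test was made with 1 array per group. An additive fit of Vhl and Apc, which takes arrays of different genotype as replicates, was not used. Members and lists were chosen with earlier results of these data known.

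Text names all members. Of each companion list it names genes at least 2-fold apart in any comparison and the 2 with the largest mean Vhl difference, and a few others, cell type markers among them, chosen after their values were seen. For members at least 2-fold apart in both Vhl comparisons it gives the 3 genes nearest in pattern, passing over clone symbols. Alternatives were a floor of 7 or none, values under 6 set to 6, averaging probe sets and leaving out those named _s_at, _x_at or _a_at. Others were cyclic loess (limma 3.58.1, R 4.3.3), a 1.5-fold threshold and exchanged controls, the last chosen after seeing the data. The counting was tested on simulated data. Python 3.11.15, numpy 2.4.6, pandas 2.3.3 and matplotlib 3.10.9 were used.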

Additional observations from a re-analysis of the deposited data

Results flagged for a closer look

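Effects of opposite sign, each at least 0.5 in size, were looked for in both backgrounds among members and companion genes. With 1 array per group the differences between backgrounds were not tested. For Prkg2, the Vhl difference was -0.87 with wild-type and 2.42 with mutant Apc, which are 3.29 apart. The same 4 values give Apc differences of -1.71 with floxed and 1.58 with deleted Vhl, again 3.29 apart. Slc13a1 had Vhl differences of -1.90 and 0.84 and Apc differences of -2.23 and 0.51, in both cases 2.74 apart. Slc13a1 reached 6 on the Vhl floxed array alone, so its positive differences lie between values under the floor, and with values under 6 raised to 6 they are 0. Prkg2 reached 6 on 2 arrays, and with values raised in this way its differences were 2.02 apart. Slc9a3 had Vhl differences of -0.85 and 0.55 and Apc differences of -0.82 and 0.58, in both cases 1.399 apart. Guca2a had Apc differences of -0.57 and 0.65, which are 1.22 apart.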

How the results depend on the processing

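Clca4b, Slc26a2 and Slc5a8 kept their direction and stayed beyond 2-fold in both Vhl comparisons under every alternative run, as did Slc37a2 wherever it had a probe set. Most of these alternatives could not have given another outcome. Clca4b, Slc5a8 and Slc37a2 have 1 probe set each, above 6 on all arrays, so other floors, raised values and averaging left their differences unchanged. A 1.5-fold threshold can only keep a 2-fold call. Cyclic loess and exchanged controls could move each of these genes. With probe sets averaged, 5 members were at least 2-fold lower with Vhl deletion and wild-type Apc, where 1.46% of 10605 genes were. Slc26a3 and Prkg2 were added at -1.14 and -1.21. In that setting 0 members were higher with the Apc mutation and floxed Vhl, since Slc4a4 was at 0.81, where 12 of 10605 genes were. Slc26a3 then differed by -1.37 and Slc4a4 by -0.81 with Vhl deletion and mutant Apc. With values under 6 raised to 6, 0 members were at least 2-fold lower with the Apc mutation and floxed Vhl, where 75 of 11871 genes were. Without probe sets whose names end in _s_at, _x_at or _a_at, 8 members had a value, Slc37a2 and Cftr having none. Of these 8, 0 were at least 2-fold lower with the Apc mutation and deleted Vhl, where 10 of 10208 genes were. Slc26a3 then differed by -1.18 with Vhl deletion and mutant Apc. With exchanged floxed controls, 1 member was at least 2-fold higher with Vhl deletion and mutant Apc, where 2.26% of all genes were. Prkg2 fell short of 2-fold. At a 1.5-fold threshold, 7 members were lower with Vhl deletion and wild-type Apc and 2 with the Apc mutation and floxed Vhl. Over all genes this threshold gave 738 higher and 603 lower, then 854 and 611, for Vhl deletion with wild-type and mutant Apc, and 125 and 280, then 86 and 94, for the Apc mutation with floxed and deleted Vhl. No member difference of 2-fold or more before these alternatives changed sign under them. Exchanged controls covered the Vhl comparisons alone. The Prkg2 difference for Vhl deletion with wild-type Apc, -0.87 and short of 2-fold before them, was -1.21 with probe sets averaged and 0.84 with exchanged controls. Cyclic loess moved the median of all genes by less than 0.1. Signal over background limits Slc26a6 and Prkg2, which lay near the floor. No paired analysis was possible because each genotype had 1 array. Blocking by Apc genotype would take arrays of different genotype as replicates and was not run.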
